A study of Homo sapiens with 8 samples.

Results

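Levels of 9 RNAs of the YAP/TEAD pathway were compared across IMR90 cells, an established line of human fetal lung fibroblasts. The genes were looked up by their Ensembl IDs in both count tables and make up 9 of the 57736 genes listed there: ANKRD1, CCN1, CCN2, AMOTL2, LATS2, AJUBA, YAP1, WWTR1 and TEAD1. All 9 held enough counts for every comparison made here. They were chosen by the log2 ratios of the knockdown pairs in these same libraries. Their knockdown values are thus given as a description and carry no test. Recovery with the HuR antibody was tested. That test shares its inputs with those pairs, and earlier results of these data were known, so it is not independent of the choice.

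The Hippo pathway is a kinase cascade that restrains cell growth. Its last kinases, LATS1 and LATS2, phosphorylate the coactivators YAP (gene YAP1) and TAZ (gene WWTR1) and keep them out of the nucleus. Unphosphorylated YAP and TAZ enter the nucleus, bind the TEAD transcription factors and switch on genes such as CCN1, CCN2 and ANKRD1, and some of their targets, LATS2 and AMOTL2 among them, feed back to restrain the coactivators. In fibroblasts the pathway responds to cell spreading, stiffness of the matrix and serum factors.

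The 8 libraries came from 2 experiments, each with 1 library per group. The RNA-seq experiment held a control and a cell line with knockdown (KD) of ADAR1, the enzyme (gene ADAR) that turns adenosine to inosine in double-stranded RNA. The immunoprecipitation experiment held lines labelled shControl, shADAR1 and shHuR, and each gave an input and a precipitate made with an antibody against HuR (gene ELAVL1), a protein that binds U-rich and AU-rich stretches of mRNAs. The agent used for the RNA-seq knockdown, the hairpin sequences and whether any line was 1 clone are not given in the sources used here, and no mock precipitate was analysed here. From its title, the series asks how loss of ADAR1 bears on p16 and senescence.

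In the RNA-seq knockdown ADAR was 7.01-fold lower, and it was 2.93-fold lower in the shADAR1 input, and ELAVL1 was 6.65-fold lower in the shHuR input. Libraries held between 28390935 and 50711218 counts. All 9 fibroblast markers were above 0 in every library, and they summed to 6099 and 6942 CPM (counts scaled to library size) in the RNA-seq pair and to 8754, 9948 and 5453 in the shControl, shADAR1 and shHuR inputs. Single markers differed by over 2-fold in some pairs: COL1A1 was higher and DCN lower in the RNA-seq knockdown, PDGFRA and DCN were higher in shADAR1, and FAP was higher and COL1A1 lower in shHuR. Cells of other types were looked for as well: summed over 5 epithelial markers, CPM ran from 14.5 to 15.2 in the RNA-seq pair and from 0.68 to 1.53 in the inputs. Summed over 5 leukocyte markers, CPM stood at 44.6 and 47.0 in the RNA-seq pair and from 21.6 to 25.4 in the inputs, where the monocyte marker CD14 held 1, 152 and 15 counts in shControl, shADAR1 and shHuR. The 4 endothelial markers matched summed to 54.5 in the control and 88.3 in the RNA-seq knockdown, and to 14.2, 57.9 and 27.6 in the shControl, shADAR1 and shHuR inputs. The part of these other cells in the results was not tested. In these bulk samples, fewer cells of a type and less RNA per cell cannot be told apart.

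ANKRD1 (ENSG00000148677) and CCN2 (ENSG00000118523) were the members with the largest knockdown differences, and the bases just upstream of both genes are shown for the motif that TEAD factors bind. The windows come from RefSeq (GRCh38.p14), run 5' to 3' on the gene's strand and cover 300 bases, 250 before and 50 after the start. The ANKRD1 window lies at chr10:90921038-90921337 and the CCN2 window at chr6:131951323-131951622, both on the minus strand. Capitals mark GGAATG, the core of the TEAD motif, which was searched on both strands.
ANKRD1: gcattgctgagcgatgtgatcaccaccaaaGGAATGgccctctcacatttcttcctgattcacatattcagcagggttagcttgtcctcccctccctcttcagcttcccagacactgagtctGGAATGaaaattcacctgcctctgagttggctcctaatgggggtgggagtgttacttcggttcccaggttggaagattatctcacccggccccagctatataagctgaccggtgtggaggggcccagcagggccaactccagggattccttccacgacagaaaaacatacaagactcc
CCN2: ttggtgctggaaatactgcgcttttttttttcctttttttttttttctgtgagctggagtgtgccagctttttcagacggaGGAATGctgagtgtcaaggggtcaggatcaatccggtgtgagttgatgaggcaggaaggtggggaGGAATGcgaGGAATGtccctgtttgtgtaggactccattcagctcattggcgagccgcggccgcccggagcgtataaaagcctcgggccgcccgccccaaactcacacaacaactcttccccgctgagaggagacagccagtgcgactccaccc
ANKRD1 held 2 matches, which began at -220 and -128 from the start, and CCN2 held 3, at -169, -104 and -95. Of 34943 promoter windows of the same length, 14.0% held at least 1 match and 1.37% held at least 2. The ANKRD1 window also held a match to TGANTCA, the motif of AP-1 factors, at -195, which does not overlap the GGAATG matches and was found in 7.72% of all windows. RefSeq windows were matched for 7 of the 9 members, 10 windows in all, while CCN1 and TEAD1 had no entry.

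Among the other matched members, LATS2, YAP1, the second start of AMOTL2 and the second start of AJUBA held 1 match each. Neither window of WWTR1 held GGAATG, nor did the first start of AMOTL2 or of AJUBA. A match is a description of letters and not a measured binding site.

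**Figure D1:**
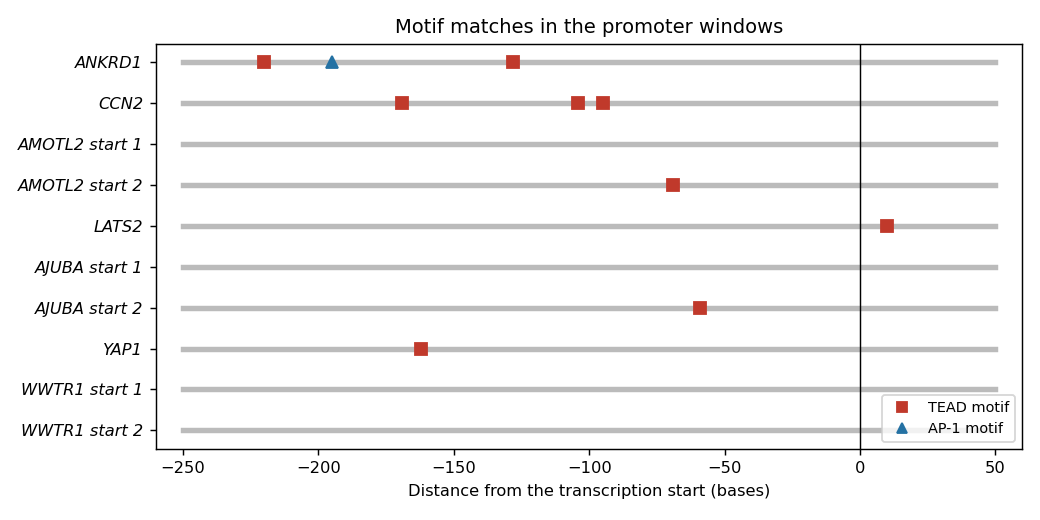
Position of GGAATG matches (either strand) and TGANTCA matches in the RefSeq promoter windows of the 7 matched members, by distance in bases from the transcription start. CCN2 holds 3 GGAATG matches and ANKRD1 holds 2, the only windows of the 10 with more than 1.

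Another set of sequences bears on the precipitates. HuR is known to bind AU-rich elements of 3' untranslated regions, and the nonamer TTATTTATT was searched as a stringent form of the element. For each gene the 3' untranslated region of a single chosen GENCODE 29 transcript was searched, so sites in other transcripts were missed. For TEAD1 that region was 812 bases long, against 10279 bases in all exons of the gene. It was found in ANKRD1 and LATS2 among the members and in 8.83% of 12095 protein-coding genes with enough counts. The sites are shown with 10 bases on either side and the nonamer in capitals.
ANKRD1 (upstream site): agtgaaactcTTATTTATTtttatgtatt
ANKRD1 (downstream site): gtattcctgtTTATTTATTtactgccacg
LATS2: agtttaactaTTATTTATTgatatatcat
In ANKRD1 the nonamers lie at bases 180 to 188 and 204 to 212 of a region 770 bases long, and in LATS2 at bases 1762 to 1770 of 1838. The shorter pentamer ATTTA occurred in all 9 members. It was found 4 times in ANKRD1 (5.19 per kilobase), 5 times in TEAD1 (6.16 per kilobase), 5 times in CCN1 (5.43 per kilobase), 9 times in AJUBA and in YAP1 and 12 times in WWTR1 (3.36 per kilobase). AMOTL2 had the sparsest region, with 2 pentamers (1.09 per kilobase), against a median of 1.67 per kilobase over the 12095 genes.

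ANKRD1, a nuclear protein with ankyrin repeats that is abundant in stressed heart muscle, was the member that differed most. The RNA-seq control held 2178 counts and the knockdown 63323. The inputs held 20 counts in shControl, 1231 in shADAR1 and 3347 in shHuR, and the precipitates held 99, 7253 and 12904 in the same order. Thus the control library of each kind was the lowest, and the shHuR library was above the shADAR1 library in both inputs and precipitates.

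After scaling by TMM (trimmed mean of M values), ANKRD1 was 22.2-fold higher in the RNA-seq knockdown, on the log2 scale 4.47 (95% interval 4.41 to 4.53). It was 86.2-fold higher in the shADAR1 input (6.43, 5.80 to 7.15) and 179-fold higher in the shHuR input (7.49, 6.86 to 8.20), both against the same shControl input. The intervals, here and throughout, cover counting error only, because each group held 1 library and the differences between pairs have no replicate check. The wide intervals of both input ratios rest on the 20 counts of the shControl input. Between the knockdown inputs, shHuR was 2.08-fold above shADAR1 (1.06, 0.96 to 1.15).

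By size of the log2 ratio, ANKRD1 ranked 38 from the top among 13235 genes in the RNA-seq pair, 18 among 13192 in the shADAR1 input and 12 among 13390 in the shHuR input. Its level in the controls differed between the experiments: by CPM of total counts it stood at 55.6 in the control of the RNA-seq pair and at 0.545 in the shControl input.

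Since ANKRD1 is best known from muscle, markers of cardiac and skeletal muscle were read in the same libraries. MYH6, MYH7, MYL2, NPPA, MYOD1 and MYOG stood at 0 counts in all 8 libraries. The 12 markers summed to 0.80 CPM in the control of the RNA-seq pair and 4.86 in its knockdown, and to 0.24, 0.53 and 2.63 in the shControl, shADAR1 and shHuR inputs. Cardiac actin ACTC1 carried most of that, with 19 and 199 counts in the RNA-seq pair and 7, 11 and 119 in the inputs. These sums were higher in the same libraries as ANKRD1, but they rest on few counts. ACTC1 alone of the 12 had enough counts for a call in the RNA-seq and shHuR pairs. None of the 12 did in the shADAR1 pair.

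**Figure D2:**
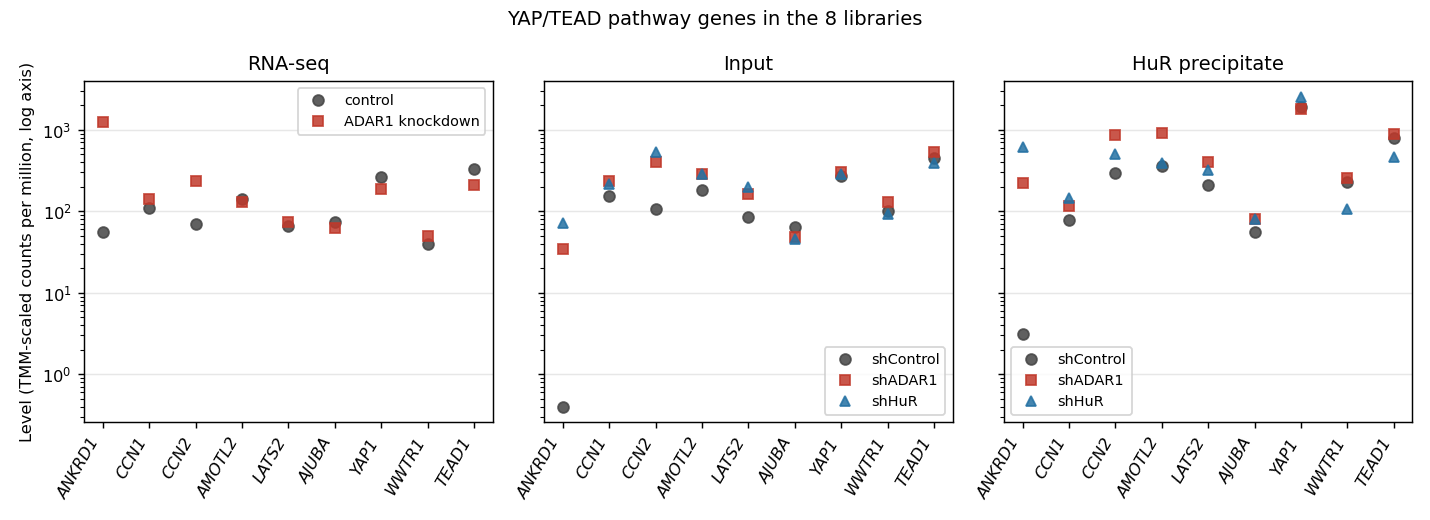
TMM-scaled CPM (log axis) of the 9 members in each of the 8 libraries, by kind of library; each point is 1 library. ANKRD1 spans from 0.40 CPM in the shControl input to 1241 in the RNA-seq knockdown, whereas YAP1 and TEAD1 stay between 187 and 327 in the RNA-seq pair.

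CCN2 (also called CTGF), a secreted matrix protein and a standard readout of YAP and TEAD activity, was higher in all 3 knockdown pairs. It held 2692 and 12055 counts in the RNA-seq pair and 5315, 14343 and 24798 in the shControl, shADAR1 and shHuR inputs. The scaled ratios were 3.42-fold in the RNA-seq (log2 1.77, 1.71 to 1.83), 3.78-fold in shADAR1 (1.92, 1.87 to 1.96) and 5.00-fold in shHuR (2.32, 2.28 to 2.37). Like ANKRD1, it stood highest of the inputs in shHuR. Its control levels were of the same order in both experiments, at 69.1 TMM-scaled CPM in the RNA-seq control against 105.9 in the shControl input. TMM was fitted within each experiment, whereas the control levels of ANKRD1 above are CPM of total counts.

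CCN1 (ENSG00000142871, also called CYR61), its secreted paralog and another standard target, differed less. Its counts were 4331 and 7213 in the RNA-seq pair and 7832, 8507 and 10242 in the inputs. That gave 1.27-fold (0.35, 0.29 to 0.40), 1.52-fold (0.61, 0.56 to 0.65) and 1.40-fold (0.49, 0.45 to 0.53), above the control each time and short of the 2-fold limit used for a call.

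AMOTL2 (ENSG00000114019), an angiomotin that holds YAP at cell junctions and is itself a target, went different ways in the experiments. It held 5522 and 6606 counts in the RNA-seq pair, a log2 ratio of -0.13 (-0.18 to -0.08). In the inputs it held 9120, 10414 and 13456 counts, 1.60-fold higher in shADAR1 (0.68, 0.64 to 0.72) and 1.58-fold in shHuR (0.66, 0.62 to 0.70).

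LATS2 (ENSG00000150457), the kinase that phosphorylates YAP and TAZ, held 2573 and 3726 counts in the RNA-seq pair, a log2 ratio of 0.14 (0.07 to 0.22). The inputs held 4308, 5842 and 9228 counts, 1.90-fold higher in shADAR1 (0.93, 0.87 to 0.98) and 2.30-fold in shHuR (1.2, 1.15 to 1.25). Both input ratios were larger than that of the RNA-seq pair.

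AJUBA (ENSG00000129474), a LIM protein that binds and inhibits LATS kinases, was the 1 member below its control in all 3 pairs. It held 2902 and 3200 counts in the RNA-seq pair and 3254, 1737 and 2148 in the inputs. Scaled, it was 1.19-fold lower in the RNA-seq (-0.25, -0.32 to -0.18), 1.34-fold in shADAR1 (-0.42, -0.50 to -0.34) and 1.41-fold in shHuR (-0.50, -0.58 to -0.42).

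The coactivators and TEAD1 themselves differed by under 2-fold in every pair. YAP1 (ENSG00000137693) held 10409 and 9554 counts in the RNA-seq pair, where it was 1.43-fold lower (-0.51, -0.55 to -0.47), and 13612, 10974 and 13556 counts in the inputs, where its ratios were 0.18 (0.14 to 0.21) and 0.09 (0.06 to 0.13). Once a smooth trend with GC content and another with transcript length were taken out, these input ratios turned to -0.03 and -0.01. WWTR1 (ENSG00000018408), which encodes TAZ, held 1552 and 2568 counts in the RNA-seq pair (0.34, 0.25 to 0.43) and 5017, 4648 and 4280 in the inputs. Its ratio was 0.38 (0.32 to 0.43) in shADAR1 and -0.13 (-0.19 to -0.07) in shHuR, the latter 0.02 once both trends were taken out.

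In the RNA-seq knockdown TEAD1 (ENSG00000187079), the DNA-binding partner of YAP and TAZ, was 1.57-fold lower (12737 and 10621 counts, -0.65, -0.69 to -0.61). With the trends over GC content and transcript length taken out, TEAD1 stood at -0.30 in that pair, outside this interval. In the inputs it held 22358, 19408 and 18177 counts, a ratio of 0.28 (0.25 to 0.31) in shADAR1 and -0.20 (-0.23 to -0.17) in shHuR. So TEAD1, like AMOTL2 and YAP1, lay on opposite sides of its control in the RNA-seq and shADAR1 pairs, and whether those pairs differ was not tested.

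Counted together, 2 of the 9 members were called at least 2-fold higher in the RNA-seq knockdown, where 8.31% of all genes were, and 0 were lower (7.71% of all genes). In the shADAR1 input 2 were higher (9.14% of all genes) and 0 lower (10.3%), and in the shHuR input 3 were higher (12.0%) and 0 lower (15.9%). ANKRD1 and CCN2 were the 2 that passed 2-fold in all 3 pairs, and LATS2 was added in shHuR. The median log2 ratio of the members was 0.14, 0.61 and 0.49, against -0.01, -0.03 and -0.03 for all genes. Just inside the 2-fold limit lay LATS2 in shHuR at 1.2, and just outside it LATS2 in shADAR1 at 0.93.

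**Figure D3:**
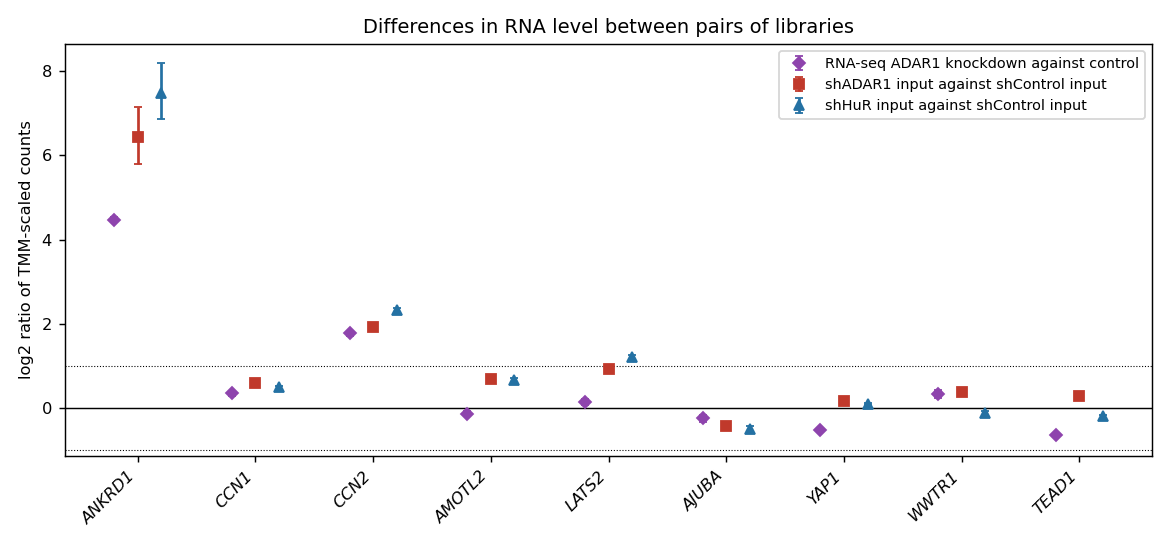
log2 ratio of TMM-scaled counts for each member in the 3 knockdown pairs; bars are 95% intervals for counting error and dotted lines mark 2-fold. ANKRD1 and CCN2 lie above 2-fold in every pair, and AJUBA lies below 0 in every pair.

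Levels of different genes can be set side by side only per transcript length, which FPKM (fragments scaled by length and depth) gives for the RNA-seq pair. In the control, YAP1 (61.5 FPKM), TEAD1 (57.2) and CCN1 (54.4) were the most abundant members, and LATS2 (12.5) and WWTR1 (9.22) the least. ANKRD1 stood in the lower part of that order at 32.1 FPKM, next to CCN2 at 32.8. In the knockdown, ANKRD1 was the highest of all 9 at 702 FPKM, followed by CCN2 at 111 and CCN1 at 68.2, and YAP1 had 43.8.

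Beyond the members, 17 further genes known as YAP/TAZ targets in other cells were read. In the RNA-seq knockdown 0 of the 17 passed 2-fold in either direction (8.31% of all genes were higher and 7.71% lower), with a median log2 ratio of -0.15. There TGFB2 alone passed, as higher, once the trends with GC content and length were taken out. In the shADAR1 input 6 were higher (9.14% of all genes) and 2 lower (10.3%), and in the shHuR input 5 were higher (12.0%) and 1 lower (15.9%), with medians of 0.29 and 0.26. The 5 higher in both inputs were the same genes: IGFBP3, TGFB2, F3, CRIM1 and CCDC80. Both input ratios, here and in the other lists, share the 1 shControl input. A low or high value there moves both, so genes called in both inputs are not independent findings.

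IGFBP3, which binds insulin-like growth factors, held 420, 14700 and 35109 counts in the shControl, shADAR1 and shHuR inputs, 49.0-fold and 89.6-fold higher. TGFB2, a transforming growth factor, held 351, 5434 and 6150 counts, 21.7-fold and 18.8-fold higher. F3, the tissue factor that starts coagulation, held 2789, 19599 and 18291 counts, 9.84-fold and 7.03-fold higher. In the RNA-seq pair these genes stood at 0.69 for IGFBP3, 0.97 for TGFB2 and -0.62 for F3 on the log2 scale, within 2-fold apart from TGFB2 under the alternative just named. CRIM1, a transmembrane protein that binds bone morphogenetic proteins, was 3.21-fold and 4.24-fold higher in the inputs, and the matrix protein CCDC80 3.67-fold and 3.86-fold.

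Named after their values were seen, AXL, a receptor tyrosine kinase, was 2.32-fold and 3.05-fold lower in the shADAR1 and shHuR inputs, and FJX1 was 2.19-fold lower in shADAR1. With the GC and length trends taken out FJX1 was no longer called in shADAR1 and was called higher in shHuR. RBMS3, an RNA-binding protein, was 2.07-fold higher in shADAR1, or under 2-fold with scaling by total counts. The list is thus mixed in direction in the inputs.

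**Figure D4:**
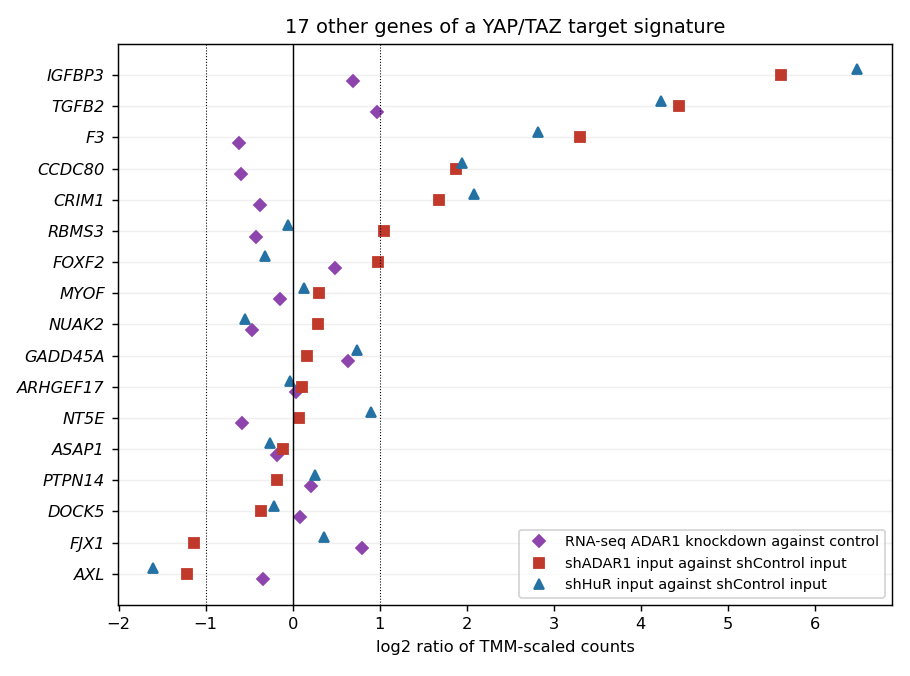
log2 ratios of the 17 further target genes in the 3 knockdown pairs; dotted lines mark 2-fold. IGFBP3, TGFB2 and F3 stand far above 2-fold in both inputs and within 2-fold in the RNA-seq pair, where TGFB2 (0.97) passes it once GC and length trends are taken out.

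Of 21 Hippo kinases and scaffolds, 0 were higher and 3 lower in the RNA-seq knockdown, 1 higher and 1 lower in the shADAR1 input, and 2 higher and 3 lower in the shHuR input. Over all genes, 8.31% were higher and 7.71% lower in the RNA-seq, 9.14% and 10.3% in shADAR1, and 12.0% and 15.9% in shHuR. The medians of the list were -0.24, 0.11 and 0.17. Of the core kinases in this list, which leaves out LATS2 (2.30-fold higher in the shHuR input, as given above), none was called: LATS1 stood at -0.32, 0.39 and 0.17, STK3 (MST2) at -0.24, 0.28 and 0.21, and STK4 (MST1) at 0.08, 0.01 and -0.04. The called members were upstream regulators. FAT4, an atypical cadherin, was 5.57-fold and 5.43-fold higher in the shADAR1 and shHuR inputs, while its ligand DCHS1 was 4.27-fold below the control in the RNA-seq and 13.9-fold lower in shHuR. FRMD6, a scaffold of the FERM family, was 2.52-fold lower in the RNA-seq and 2.41-fold higher in shHuR. WWC1 (KIBRA) was 2.02-fold lower in the RNA-seq and 3.06-fold lower in shADAR1. With total counts WWC1, and with GC and length trends removed FRMD6, stayed within 2-fold in the RNA-seq. MAP4K4, a kinase that can activate LATS, was 3.35-fold lower in shHuR, and WWC3 2.37-fold lower.

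Of the 13 partners and inhibitors of YAP and TEAD listed, 11 had enough counts. Among these 1 was lower in the RNA-seq knockdown (VGLL3, a TEAD cofactor, 2.75-fold) and 4 were lower in each input, with 0 higher in any pair and medians of 0.14, -0.64 and -0.87. Over all genes, the shares called lower were 7.71%, 10.3% and 15.9%, and the shares called higher 8.31%, 9.14% and 12.0%. TEAD4 was 3.08-fold lower in shADAR1 and 4.12-fold in shHuR, TEAD2 2.37-fold and 3.33-fold, and the scaffold AMOT 3.53-fold and 2.41-fold. The LIM proteins WTIP (2.19-fold, shADAR1) and LIMD1 (2.12-fold, shHuR) were lower as well. LIMD1 was no longer called with the GC and length trends taken out, and with total counts WTIP was called lower in shHuR too. TEAD3 stood at 0.24, 0.29 and -0.13. VGLL1 and VGLL2 held 0 counts in all libraries.

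The paralogs of CCN1, CCN2 and ANKRD1 were read as well, and 3 of them had enough counts in the RNA-seq pair. CCN3 was 2.53-fold higher in the RNA-seq knockdown and 2.63-fold lower in the shADAR1 input, and CCN4 was 10.0-fold lower in the RNA-seq and 3.28-fold higher in shADAR1. CCN5 held 2 control counts and 284 knockdown counts in the RNA-seq, a log2 ratio of 6.76 (4.89 to 9.81), and at most 28 counts in any input. In the shHuR input 0 of the 2 paralogs with enough counts were called. CCN6 was at 0 throughout, and the muscle ankyrin repeat genes ANKRD2 and ANKRD23 held at most 46 counts in any library.

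ADAR1 knockdown was also tested over both experiments with edgeR's quasi-likelihood test, on 4 libraries with the experiment as block. Of the 54 further pathway genes tested, 0 passed an adjusted p of 0.05. An unadjusted p under 0.05 (edgeR) was found for 4 of the 54, namely WWC1, DCHS1, IGFBP3 and TGFB2. Over all 15994 genes tested, 761 had an unadjusted p under 0.05 (edgeR). DESeq2 called 2 of the 54, IGFBP3 and TGFB2, and its calls over all genes are given further on. The lists were chosen with earlier results of these data known, so these calls give no independent support. Over all 15994 genes tested with edgeR, 13 rose (0.0813%) and 2 fell (0.0125%). The p-values of this test, and of the precipitation test given further on, reflect no more than the spread among these libraries, and that spread may be technical.

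Recovery with the HuR antibody was read as precipitate against input in each line. ANKRD1 was enriched in all 3: 7.89-fold in shControl (log2 2.98, 2.28 to 3.75), 6.40-fold in shADAR1 (2.68, 2.59 to 2.77) and 8.56-fold in shHuR (3.10, 3.04 to 3.15). YAP1 was enriched to a like extent, with 60192, 60300 and 53997 counts in the precipitates and ratios of 7.05-fold, 5.97-fold and 8.84-fold. For both genes the value in the line with HuR knockdown was no lower than in shControl. These ratios are relative to the other RNAs of each library, so a change in total recovery would not show. Whether recovery depends on the level of HuR was not tested.

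Recovery of the other members was lower. LATS2 stood at 1.29, 1.33 and 0.72 on the log2 scale, AMOTL2 at 1.0, 1.66 and 0.44, WWTR1 at 1.21, 0.99 and 0.24, and TEAD1 at 0.82, 0.73 and 0.26. CCN2 stood at 1.49 and 1.12 and, in the shHuR line, at -0.09 (-0.12 to -0.05). CCN1 was below its input in every line, at -0.98, -1.02 and -0.58. Its searched region holds 5.43 ATTTA pentamers per kilobase and that of ANKRD1 5.19. Whether pentamer density goes with recovery was not tested. AJUBA was below its input in shControl (-0.24) and above it in shADAR1 (0.72) and shHuR (0.80).

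At 2-fold, 5 members were higher in the shControl precipitate (28.9% of all genes), 5 in shADAR1 (28.8%) and 2 in shHuR (24.0%). Lower at that limit were 0 in shControl (40.3% of all genes), 1 in shADAR1, CCN1 (39.3%), and 0 in shHuR (28.6%). The 2 in shHuR were ANKRD1 and YAP1.

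Tested over the 3 lines with the line as block, 7 of the 9 members rose in the precipitate and 1 fell, where 30.3% of 16232 genes rose and 31.3% fell. ANKRD1 rose by a log2 fold change of 3.06 (SE 0.28, adjusted p = 1.36e-05, edgeR) and YAP1 by 3.00 (SE 0.26, adjusted p = 1.08e-05, edgeR). LATS2 rose by 1.26 (SE 0.26, adjusted p = 0.00171, edgeR), AMOTL2 by 1.18 (SE 0.28, adjusted p = 0.00427, edgeR) and CCN2 by 1.0 (SE 0.32, adjusted p = 0.0188, edgeR). WWTR1 rose by 0.97 (adjusted p = 0.0112, edgeR) and TEAD1 by 0.76 (adjusted p = 0.0206, edgeR), CCN1 fell by 0.71 (adjusted p = 0.0317, edgeR), and AJUBA did not pass at 0.58 (adjusted p = 0.109, edgeR). The median over the members was 1.0, and over all genes -0.11.

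The scaling weighs on these calls. Scaled by total counts, the median of all genes moved from -0.11 to -1.06, and the members that rose were then ANKRD1 and YAP1 alone, with CCN1 still lower. Without the block for the line, ANKRD1 had an adjusted p of 0.169 (edgeR) and YAP1 of 0.00104 (edgeR).

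**Figure D5:**
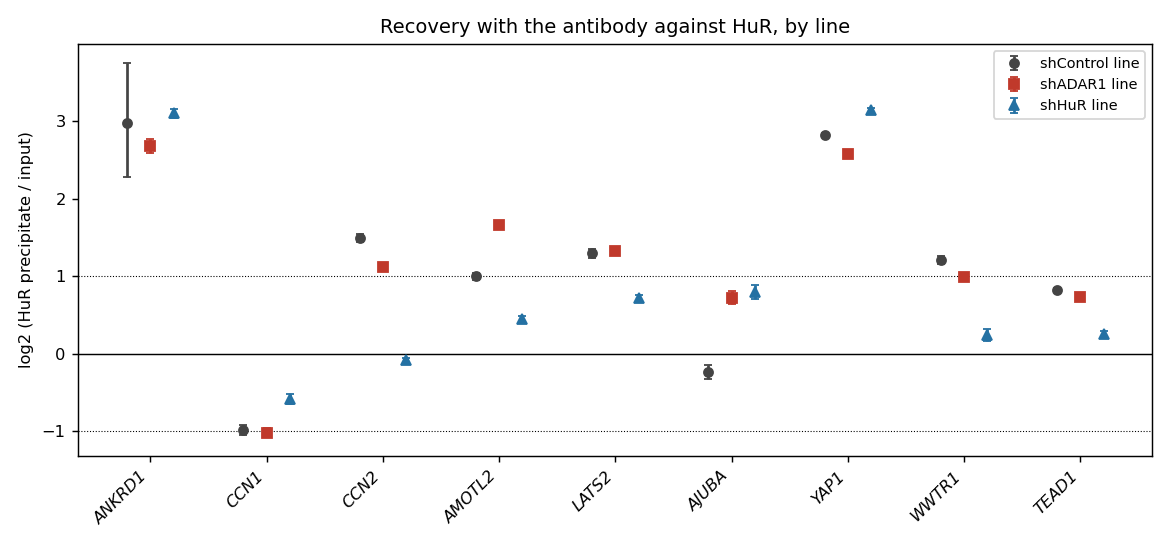
log2 ratio of precipitate to input (TMM-scaled) for each member in the shControl, shADAR1 and shHuR lines; bars are 95% intervals for counting error. ANKRD1 and YAP1 lie above 2.5 in every line, and CCN1 lies below 0 in every line.

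Enrichment was then compared between lines. In shADAR1 against shControl, ANKRD1 differed by -0.30 (-1.0 to 0.40) on the log2 scale, an interval that includes 0. AMOTL2 was 1.58-fold more enriched in shADAR1 (0.66, 0.61 to 0.71), the 1 member called among 6 with a mean log2 enrichment of at least 1, where 9.32% of all such genes were called higher and 12.6% lower. CCN2 stood at -0.38 (-0.43 to -0.32), LATS2 at 0.03, YAP1 at -0.24, WWTR1 at -0.22 and TEAD1 at -0.09.

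In shHuR against shControl, 0 of the 3 members with that mean enrichment were called, where 22.1% of such genes were higher and 28.5% lower. ANKRD1 differed by 0.12 (-0.58 to 0.81) and YAP1 by 0.33 (0.29 to 0.37). CCN2 was 2.99-fold less enriched (-1.58, -1.64 to -1.52), WWTR1 1.96-fold (-0.97, -1.06 to -0.88) and LATS2 1.49-fold (-0.58). TEAD1 stood at -0.57 and AMOTL2 at -0.55. AJUBA was 2.05-fold more enriched (1.03, 0.91 to 1.16). CCN2, WWTR1, TEAD1, AMOTL2 and AJUBA did not reach the mean enrichment needed for a call, and LATS2 missed the 1.5-fold limit. For ANKRD1 no difference was detectable at the depth of the shControl libraries.

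Several other genes of the pathway were recovered as strongly. Of the 21 Hippo kinases and scaffolds 12 rose and 1 fell in the precipitates, where 30.3% of all genes rose and 31.3% fell. The 4 furthest were NF2 (Merlin, a membrane-bound activator of the kinases) at 15.0-fold, the LATS cofactors MOB1B (12.1-fold) and MOB1A (8.35-fold), and STRN3, a subunit of the complex that dephosphorylates MST kinases, at 9.62-fold. LATS1 rose by 1.63 and STK4 by 2.69 on the log2 scale, and STK3 stood at 0.28, which did not pass. RASSF1, the 1 that fell, was 4.74-fold lower and is named after its value was seen.

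Of the 11 partners and inhibitors 5 rose and 4 fell, against 30.3% and 31.3% of all genes. The cofactor VGLL3 rose 7.57-fold, TEAD2 7.05-fold and VGLL4 4.11-fold. TEAD4 (3.78-fold), TEAD3 (1.89-fold) and the LIM protein TRIP6 (3.99-fold) fell. TEAD1 rose as given above, but it turned to -0.20 with scaling by total counts and missed the threshold without the shControl line or the shADAR1 line.

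Of the 17 further target genes 10 rose and 3 fell, led by RBMS3 (13.95-fold), the guanine exchange factor DOCK5 (10.7-fold), AXL (10.5-fold) and the kinase NUAK2 (7.22-fold). Of the 5 paralogs tested 0 rose and 2 fell, CCN3 and ANKRD2. Over all genes 30.3% rose and 31.3% fell. With scaling by total counts the split became 7 and 6 for the kinases and scaffolds and 3 and 5 for the partners and inhibitors. It became 9 and 7 for the target genes and 0 and 3 for the paralogs. That scaling moved all genes as well, from a median log2 fold change of -0.11 to -1.06.

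The strand setting of the counting was not given in the sources used here, so reads of overlapping genes on opposite strands cannot be told apart. Genes on the opposite strand overlap 8.34% of the exon length of CCN2, 9.97% of YAP1 and 9.45% of WWTR1 (WWTR1-AS1). Same-strand overlaps cover 3.13% of AMOTL2 and 0.836% of AJUBA, and ANKRD1, CCN1, LATS2 and TEAD1 had none.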

How the data were processed

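RNA levels were measured in 8 IMR90 libraries, and file columns were tied to samples through their headers. Expected counts, as deposited, were estimated per gene with RSEM 1.2.3 on hg19 per the submitters' processing notes, which also name GRCh37 for the precipitation experiment and DESeq2 for the RNA-seq. The deposited values are whole numbers and entered the models as they were. The deposited FPKM values of the RNA-seq pair, per the file headers, served for levels between genes and in an alternative. The aligner, annotation release and strand setting are not given in the sources used here.

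Pair differences are log2 ratios of TMM-scaled counts (edgeR 4.0.16, R 4.3.3) with exact conditional binomial 95% intervals. Calls used a prior count of 2, 2-fold and at least 50 counts in 1 library. Enrichment differences carry normal intervals from the 4 counts and were called at 1.5-fold among genes with a mean log2 enrichment of at least 1. Precipitates were tested against inputs over 6 libraries with the line as block, and ADAR1 knockdown over 4 libraries with the experiment as block. Both tests used edgeR's quasi-likelihood test with its filter on low counts and Benjamini-Hochberg adjustment at 0.05 over all genes tested. They were also tried on simulated data with less spread than these libraries, so that trial does not vouch for the p-values. The blocks come from the labels, which give no replicate numbers. Alternatives were other scalings, count minimums and priors, DESeq2 1.42.0, no block and leaving out a line.

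The members and all gene lists were chosen with earlier results of these data known. Named were the members, up to 4 called genes per list and comparison with the largest log2 ratio, the TEAD, LATS and MST paralogs, and the 5 genes whose profile was nearest to that of ANKRD1. Symbols matched 39501 of 57736 IDs (68.4%).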

Additional observations from a re-analysis of the deposited data

Results flagged for a closer look

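Members on opposite sides of the control in the ADAR1 knockdown of the RNA-seq and in the shADAR1 input were AMOTL2, YAP1 and TEAD1, with 1 library on each side of each pair. AMOTL2 stood at -0.13 in the RNA-seq and at 0.68 in the input on the log2 scale. YAP1 stood at -0.51 and 0.18, and its input value was -0.03 with smooth trends over GC content and length taken out. TEAD1 stood at -0.65 and 0.28. Its RNA-seq value was -0.30 with those trends taken out and -0.50 from FPKM with a pseudocount of 0.1. The difference between the experiments was not tested for these genes.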

How the results depend on the processing

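All differences between pairs rest on 1 library per group, and the depth of 20 ANKRD1 counts limits the shControl input. With no count minimum, genes called higher and lower were 3142 and 2412 in the RNA-seq, 3232 and 3293 in the shADAR1 input and 4193 and 3972 in the shHuR input. From FPKM with a pseudocount of 1, the RNA-seq gave 622 and 570. With total counts, enrichment in shADAR1 was higher for 165 genes and lower for 238, and in shHuR for 379 and 418.

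In the precipitation test, total counts gave 2769 genes that rose and 8287 that fell, against 4926 and 5087. There AJUBA turned to -0.38 and TEAD1 to -0.20, and CCN2 (adjusted p = 0.922, edgeR), AMOTL2 (0.525), LATS2 (0.340) and WWTR1 (0.977) were no longer past the threshold. With no replicate block, 3590 rose and 3020 fell, and CCN1 (adjusted p = 0.145, edgeR), CCN2 (0.285), WWTR1 (0.0564) and TEAD1 (0.0901) joined ANKRD1 in missing it. Leaving out a line gave 2831 to 5383 that rose and 3589 to 5863 that fell. CCN1, CCN2, WWTR1 and TEAD1 missed the threshold without the shControl line and without the shADAR1 line, AMOTL2 and LATS2 without the shADAR1 line, and ANKRD1 and YAP1 passed with any line left out. AJUBA passed without the shControl line (0.92, adjusted p = 0.0374, edgeR).

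For ADAR1 knockdown over both experiments, DESeq2 called 93 higher and 27 lower among 26799 genes with any count. No filter gave 140 and 34, and no replicate block gave 0 and 0. TMM within each experiment, chosen after seeing the data, gave 124 and 38, and TMM against the shControl input, also chosen then, put TEAD1 at an adjusted p of 0.0511 (edgeR) in the precipitation test. Trends over GC content and length were removed for 97.49% to 97.7% of the genes, which put AMOTL2 in the shHuR input past 2-fold at 1.01.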

Other observations

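Genes were ranked by how near their profile over the 8 libraries lay to that of ANKRD1, as the Euclidean distance of log2(CPM + 1) centred within each kind of library. Among 12380 genes, the nearest 5 were SLC16A6 (distance 2.80), a solute carrier, CXCL8 (3.00), the chemokine interleukin-8, ADAMTS5 (3.04), a protease that cleaves aggrecan, DIO2 (3.06), a deiodinase that activates thyroid hormone, and IGFBP3 (3.24). SLC16A6 was 16.0-fold higher in the RNA-seq knockdown, 26.8-fold in the shADAR1 input and 55.8-fold in the shHuR input. CXCL8 was 5.58-fold, 223-fold and 1006-fold higher, ADAMTS5 2.94-fold, 50.4-fold and 39.2-fold, and DIO2 9.21-fold, 6.53-fold and 41.5-fold. Of the other pathway members, CCN2 ranked 146 by the same distance (5.62), followed by LATS2 at 1196 and CCN1 at 1661, while TEAD1 ranked 9348.

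Control levels of the target genes that stood highest in the knockdown inputs also differed between the experiments. By CPM of total counts, IGFBP3 stood at 499 in the control of the RNA-seq pair and 11.4 in the shControl input, F3 at 585 and 76.0, and TGFB2 at 37.3 and 9.56. CRIM1 stood at 752 and 172, and CCDC80 at 334 and 105. These values are set side by side from separate experiments and were not tested.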
